A study of Mus musculus with 29 samples.

Results

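Of the 78408 joined sites in the 9 peak lists of this ChIP-seq study, 6980 (8.90%) held an Atoh1 peak from cells that expressed Gfi1, Pou4f3 and Atoh1 together and no peak of any other list. They were found by centring a 300 bp window on every peak summit, joining windows that shared 1 bp or more, and keeping sites whose peaks all came from the iGPA Atoh1 list. They made up 27.3% (95% exact interval 26.8 to 27.9) of the 25541 sites with an iGPA Atoh1 peak. Because the sites were selected by the presence of a peak in 1 list and its absence from 8, their presence and their peak heights are given below as a description, and only sequence, position and gene content were compared with other sites. The rule also excludes Pou4f3 and Gfi1 peaks, so it is not neutral for the sequence patterns of those factors.

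Atoh1 is a basic helix-loop-helix (bHLH) transcription factor that pairs with E proteins and binds the 6-letter E-box CANNTG, most readily as CAGATG or CAGCTG. It specifies hair cells, the mechanosensory cells of the inner ear, and also neurons of the cerebellum and secretory cells of the gut. Pou4f3 is a POU-homeodomain factor and Gfi1 a zinc-finger factor best known as a repressor, and both are needed for hair cells to mature and survive. The paper proposes that Gfi1 can also enhance activation by Atoh1. The comparison asks what marks the Atoh1 sites that were called with both partners present and not with Atoh1 alone or with a single partner.

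All lines were mouse embryonic stem cells derived from A2loxCre, in which doxycycline switches on a transgene cassette that ends in a Venus reporter. The lines used here expressed Atoh1 (iAtoh1), Gfi1 and Atoh1 (iG+A), Pou4f3 and Atoh1 (iP+A), Pou4f3 (iPou4f3), Gfi1 and Pou4f3 (iG+P), or Gfi1, Pou4f3 and Atoh1 (iGPA). Embryoid bodies were given 2 µg/ml doxycycline for 48 hours, collected at day 6 and dissociated before fixation. The paper's ChIP methods mention no sorting for Venus. Every list, also the single-factor ones, came from treated cells. The Atoh1 transgene carried FLAG and the Pou4f3 transgene MYC, and these tags were the targets of their ChIPs, whereas an antibody to Gfi1 itself served for that factor. The Atoh1 and Pou4f3 lists therefore record the transgenic proteins. The series held 29 libraries, 17 from ChIP and 12 from input, with 2 ChIP libraries in each group and 1 for Gfi1. The authors merged replicate libraries before they called peaks, so no site has a value per replicate, and an Atoh1 ChIP from uninduced or untagged cells was not analysed here. Each line was grown from picked colonies, and a difference between lines cannot be told apart from a difference between colonies.

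The 4 Atoh1 lists held 15568 (iAtoh1), 20504 (iG+A), 18949 (iP+A) and 26231 (iGPA) peaks. Sites in 1 list alone numbered 2844 for iAtoh1, 5068 for iG+A and 3157 for iP+A, or 18.9%, 25.6% and 17.1% of the sites of each list. The iGPA Atoh1 list was thus the longest of the 4 Atoh1 lists and had the largest share of its sites to itself among them. That share was larger in the iG+P Pou4f3 list (28.4%) and the iGPA Gfi1 list (30.6%), and 11.7% to 20.3% in the other Pou4f3 lists. When the iGPA Atoh1 list was cut to the 15568 peaks with the highest −log10 p, the length of the shortest Atoh1 list, 2619 sites remained alone. The usual background recovered from the lists was 7.13 fragments under an iGPA Atoh1 summit, against 7.19 in iAtoh1, 6.49 in iG+A and 8.30 in iP+A. At that background the weakest peak kept in each list had a fold enrichment of 2.46 (iGPA), 2.44 (iAtoh1), 2.54 (iG+A) and 2.37 (iP+A). Absence from a list of kept peaks does not show absence of Atoh1.

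**Figure D1:**
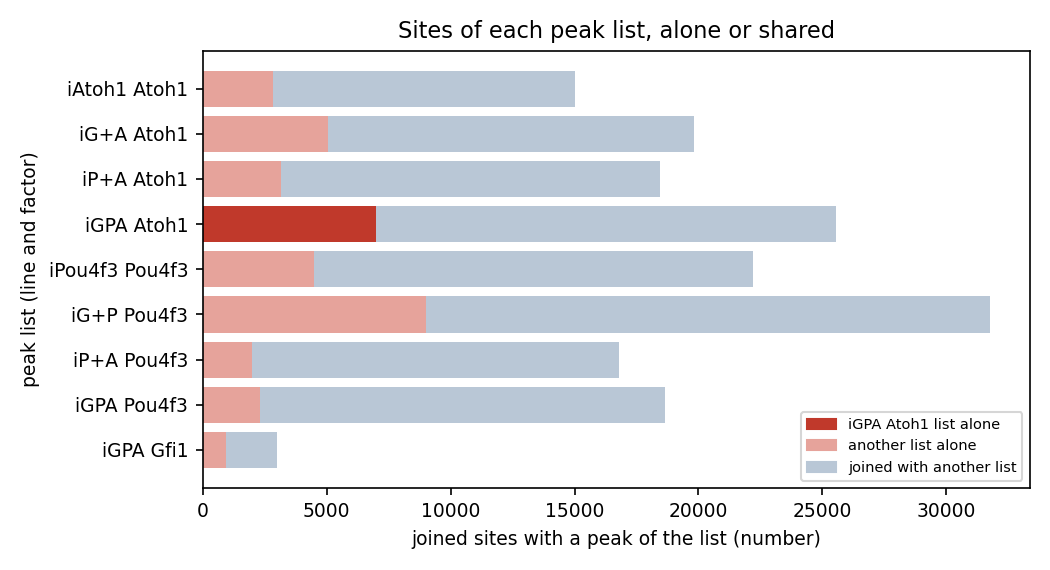
Joined sites with a peak of each of the 9 lists, split into sites in that list alone and sites joined with a peak of another list (x axis, number of sites). The 6980 sites of the iGPA Atoh1 list alone compare with 2844 to 5068 single-list sites in the other Atoh1 lists and 9017 in the iG+P Pou4f3 list.

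The 6 strongest of these sites outside short tandem repeats are printed to show what Atoh1 was found on in the three-factor line. Each line gives 91 bases of the plus strand of mm9, 5′ to 3′, centred on the summit, with capitals for CAGATG (read as CATCTG on the other strand), CAGCTG or CATATG. The fold enrichments of the 6, in the order printed, were 19.9, 10.95, 9.97, 8.25, 7.59 and 7.51.
2310030N02Rik intron (chr4:10981498-10981588): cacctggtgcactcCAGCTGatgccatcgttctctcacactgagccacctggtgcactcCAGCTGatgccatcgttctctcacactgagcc
Dctn2 coding exon, nearest start Mbd6 (chr10:126713471-126713561): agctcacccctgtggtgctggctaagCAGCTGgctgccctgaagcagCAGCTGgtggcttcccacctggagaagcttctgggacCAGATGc
Glra4 intron (chrX:133312742-133312832): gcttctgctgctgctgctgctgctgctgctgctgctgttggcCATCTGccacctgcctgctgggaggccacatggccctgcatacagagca
Pick1 intron (chr15:79062539-79062629): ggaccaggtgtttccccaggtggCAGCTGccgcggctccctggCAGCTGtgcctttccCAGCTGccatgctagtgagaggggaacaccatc
Cyfip2 intron (chr11:46118506-46118596): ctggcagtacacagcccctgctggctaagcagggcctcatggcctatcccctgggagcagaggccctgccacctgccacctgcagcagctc
Fbxl16 intron (chr17:25947068-25947158): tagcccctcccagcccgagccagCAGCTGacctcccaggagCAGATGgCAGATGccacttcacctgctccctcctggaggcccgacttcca

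In 5 of the 6 an Atoh1 E-box lay within the 91 bases, and in 4 of those there were at least 2. The Cyfip2 site had its nearest E-box 119 bp from the summit, outside the printed run. The strongest site stood apart from the others: its peak was 2265 bp wide against 200 to 241 bp for the next 7, it overlapped a kept peak of another list beyond its own summit, and its sequence repeats a unit of 45 bases, with 94.8% identity between neighbouring units over 1000 bases. A Pou4f3 peak of the iGPA line was also called on this site and left out by the authors. The remaining sites named by strength were in an Il22ra1 intron on chromosome 4 (summit 135293012, fold enrichment 7.51, no E-box) and between genes on chromosome 9 (summit 74213966, fold enrichment 7.51, 3 E-boxes). Of the 8, 6 were intronic and 7 held an E-box within 250 bp centred on the summit.

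Another 4 sequences are shown because they lie at genes that hair cells need. Tmie belongs to the mechanotransduction channel complex, Cacna1d encodes the calcium channel of the hair cell synapse, Myo15 carries proteins to the tips of stereocilia and Myo7a is the stereocilia myosin most used as a hair cell marker. Their fold enrichments, in the same order, were 5.78, 5.29, 4.06 and 4.06.
Tmie intron (chr9:110777384-110777474): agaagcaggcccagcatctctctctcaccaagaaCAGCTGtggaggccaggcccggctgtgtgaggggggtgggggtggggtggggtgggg
Cacna1d intron (chr14:30859924-30860014): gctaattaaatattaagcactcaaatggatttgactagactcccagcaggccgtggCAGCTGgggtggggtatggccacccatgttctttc
Myo15 intron (chr11:60311125-60311215): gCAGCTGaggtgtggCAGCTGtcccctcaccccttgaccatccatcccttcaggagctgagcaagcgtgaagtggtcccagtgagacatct
Myo7a start (chr7:105267958-105268048): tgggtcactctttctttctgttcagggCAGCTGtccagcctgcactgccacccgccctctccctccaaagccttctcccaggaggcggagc

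The sites were weak as a group. Fold enrichment over the local background, the ratio the peak caller reports at the summit, had a median of 3.08 (lower and upper quartile 2.83 and 3.57), and the −log10 p had a median of 6.83. In recovered fragments this was a median of 25 under the summit (quartiles 22 and 28) against a usual background of 7.13. The 16284 iGPA Atoh1 sites shared with at least 1 other Atoh1 list had a median fold enrichment of 3.94, and the 4767 sites in all 4 Atoh1 lists, which are part of them, a median of 5.66. Both classes may also hold Pou4f3 or Gfi1 peaks, which the rule excludes from the 6980 sites. The 2277 iGPA Atoh1 sites with a Pou4f3 or Gfi1 peak but no other Atoh1 peak were as weak as the single-list sites, with a median of 3.20. Of the 6980 sites, 1254 reached a −log10 p of 10, 101 reached 20, and 38 had a fold enrichment of 6 or more. A site joined from 2 or more iGPA Atoh1 peaks was rare (28 of 6980).

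**Figure D2:**
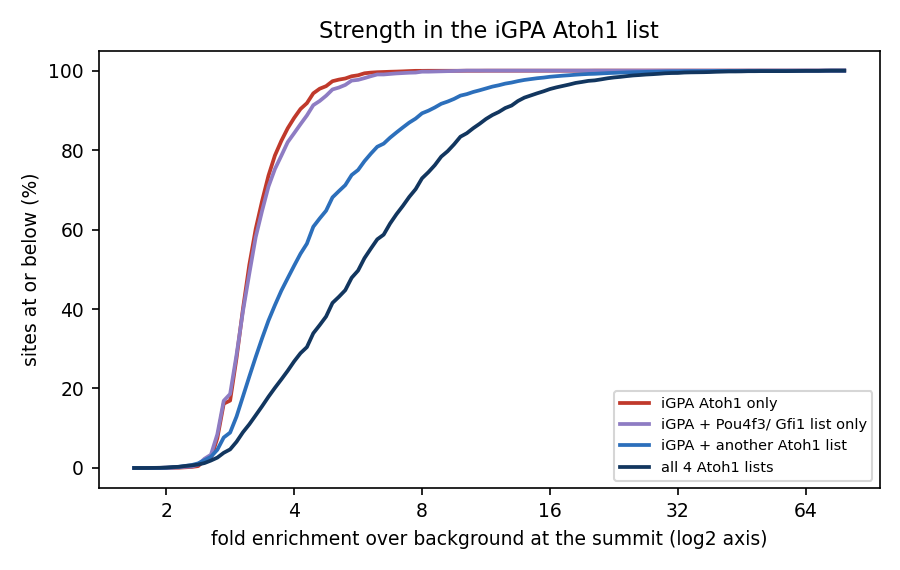
Cumulative share of sites (y axis, percent) at or below each fold enrichment in the iGPA Atoh1 list (x axis, log2 scale) for 4 classes of site. The curve of the 6980 single-list sites (median 3.08) rises with that of sites that otherwise had a Pou4f3 or Gfi1 peak only (median 3.20), to the left of the sites shared with another Atoh1 list (3.94) and of the sites in all 4 Atoh1 lists (5.66).

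The 249 sites whose nearest summit of another list lay 300 to 349 bp away had a median fold enrichment of 2.95 and an E-box in 56.6%. The 272 iGPA Atoh1 peaks just outside, with a summit of another list at 250 to 299 bp, had 2.95 and 51.1%. Both E-box shares were below the 78.8% of all 6980 sites. Most sites were far from that edge: the nearest summit of any other list was a median of 6100 bp away, and of another Atoh1 list 13318 bp. Even so, 14.2% lay within 1 kb of a summit of another Atoh1 list and 13.5% within 1 kb of a Pou4f3 summit, and for 100 of the 6980 (1.43%) the called peak overlapped a kept peak of another list.

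The authors left out 14.1% to 35.5% of the peaks called in each list, and some of those of the other lists fell on these sites. A left-out peak of another Atoh1 list was present at 424 sites (6.07%, 95% exact interval 5.53 to 6.66), and of any of the 8 other lists at 598 (8.57%, 7.92 to 9.25). By list these were 173 for iAtoh1, 233 for iG+A and 186 for iP+A, from 40 to 155 for the Pou4f3 lists, and 6 for Gfi1. An E-box was found in 51.3% of the 598 (47.3 to 55.4) and in 81.3% of the other 6382 (80.3 to 82.3).

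An Atoh1 E-box was more frequent in these sites than in the single-list sites of the other lines. An Atoh1 E-box (CAGATG as well as CAGCTG and also CATATG, on either strand) lay within 250 bp centred on the summit in 5497 of the 6980 sites, or 78.8% (95% exact interval 77.8 to 79.7), against 33.5% of windows of the same length 1000 bp to each side. The share was 48.7% in sites of the iAtoh1 list alone, 59.8% in those of iG+A alone and 58.7% in those of iP+A alone. The differences were 30.1 percentage points (95% interval 27.5 to 32.7), 18.9 (16.1 to 21.8) and 20.1 (17.7 to 22.5). The intervals come from a jackknife that leaves out each chromosome in turn. They measure the spread between chromosomes of the same merged lists, not between libraries or lines. Each difference was seen on every one of the 20 chromosomes with at least 20 sites in both classes. AtEAM, the longer pattern known from Atoh1 sites in the cerebellum, was present in 20.6% against 2.29% of flanks, and in 10.5% of the single-list sites of iAtoh1, 13.003% of those of iG+A and 12.2% of those of iP+A. Of all RefSeq promoters (GRCm38.p6, 250 bp upstream of each of 32851 starts), 28.1% held an E-box, 1.66% AtEAM, 5.68% the Pou4f pattern and 0.60% the Gfi1 pattern described below. AtEAM was matched on both strands as RMCAKMTGKY with no mismatch (R is A or G, M is A or C, K is G or T, Y is C or T). The paper searched for this motif with a motif tool and reports larger shares, so its values cannot be set directly beside these. The pattern contains an E-box, so the same bases can count for both. The E-box share was compared with that of 6 other classes, and these intervals are not adjusted for the number of comparisons. In the crowded bins described below lay 30.1% (iAtoh1), 18.1% (iG+A) and 18.7% (iP+A) of the other single-list sites, against 9.68% of the iGPA-only sites. Outside those bins the differences were 26.5, 17.1 and 17.9 points. Median fold enrichments there were 2.81, 2.94 and 2.80, each in its own list, against 3.20. Fold bands were not applied to these comparisons.

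**Figure D3:**
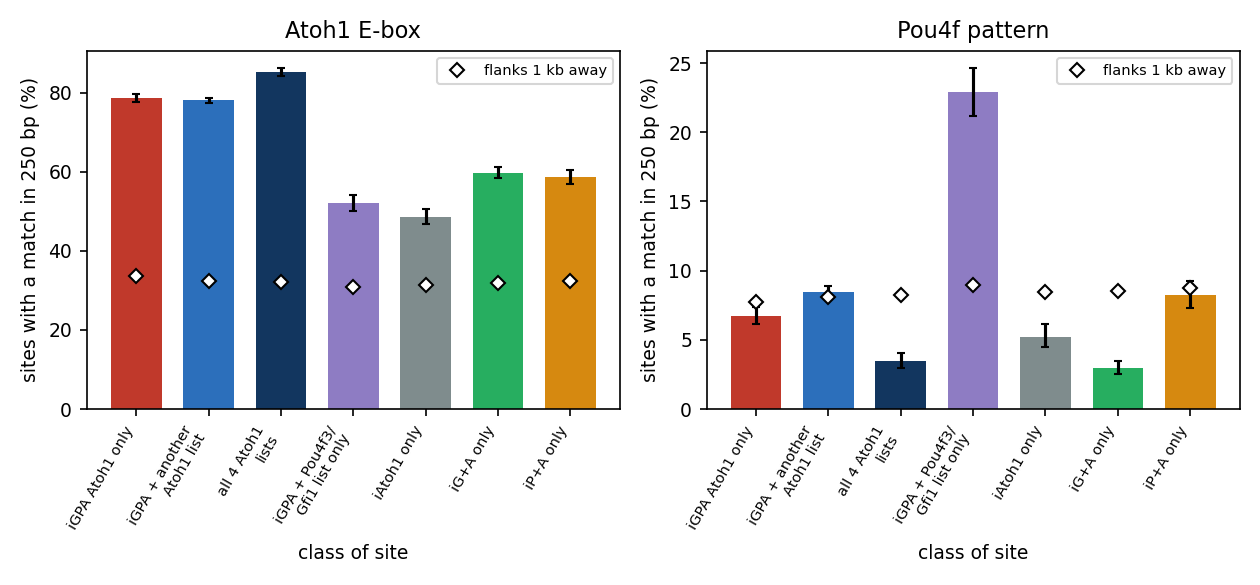
Share of sites (bars, percent, with 95% exact intervals) with an Atoh1 E-box (left) and with the Pou4f pattern (right) in 250 bp centred on the summit, for 7 classes of site, and the share in flanks 1 kb away (diamonds). The iGPA-only sites reach 78.8% for the E-box, close to sites shared with another Atoh1 list (78.1%), and 6.73% for the Pou4f pattern, below their own flanks.

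Against the iGPA Atoh1 sites shared with another Atoh1 list, the E-box share did not differ over all sites: 78.8% against 78.1%, a difference of 0.69 points (95% interval −2.81 to 4.19), above 0 on 6 of 20 chromosomes. This value rested on stretches of the genome in which the lists were crowded. In 56 bins of 1 Mb with 100 or more joined sites (median 23 per bin), among them those starting at 3 to 8 Mb of chromosome 14 and at 145 to 147 Mb of chromosome 4, 2579 of the shared sites (15.8%) and 676 of the iGPA-only sites (9.68%) were found, with an E-box in 47.4% and 54.1%. Outside those bins 81.4% of the iGPA-only sites and 83.8% of the shared sites had an E-box, a difference of −2.45 points (−3.32 to −1.57). Within bands of fold enrichment the order was the other way. From 3 to below 3.3, 79.7% of 1414 iGPA-only sites and 65.1% of 1717 shared sites had an E-box, and from 3.3 to below 3.7, 85.9% and 73.8%. Averaged over 7 bands with the weights of the iGPA-only sites, the difference was 12.5 points (8.53 to 16.4), and outside the crowded bins 7.82 points (6.303 to 9.34), in each case on 20 of 20 chromosomes. In the highest band, fold enrichment 6 and over, the 38 iGPA-only sites had 89.5% (75.2 to 97.1) and the 3534 shared sites 93.8% (92.9 to 94.5), so the order there was not resolved. The bins and the bands were chosen after the values had been seen. Shared sites may hold Pou4f3 or Gfi1 peaks, and the iGPA-only sites may not. The iGPA Atoh1 sites whose other peaks were all of that kind had an E-box in 52.1%. These differences therefore mix sharing with another Atoh1 list and the removal of such peaks, and the parts were not separated.

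**Figure D4:**
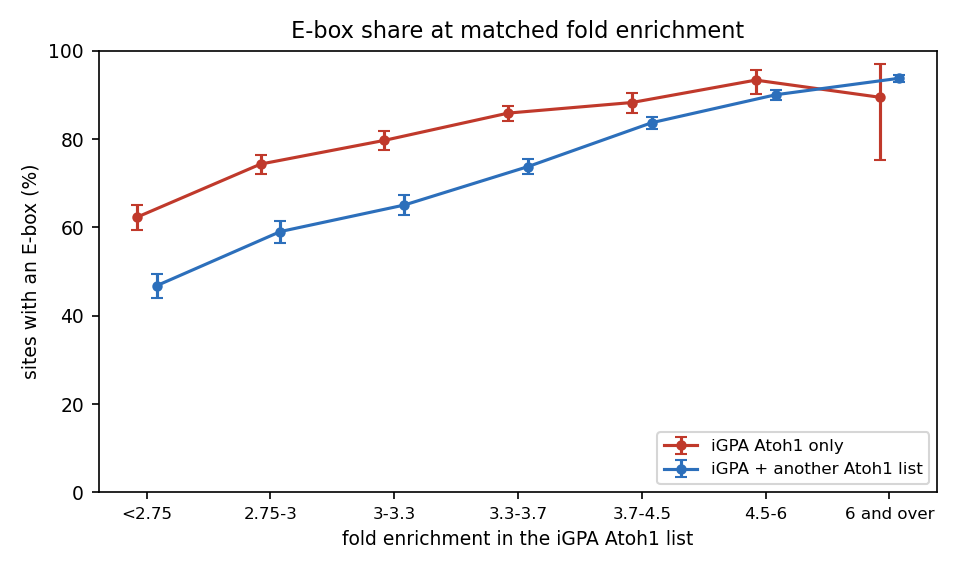
Share of sites with an Atoh1 E-box (y axis, percent, points with 95% exact intervals) in 7 bands of fold enrichment (x axis) for iGPA-only sites and for iGPA sites shared with another Atoh1 list. Up to a fold enrichment of 4.5 the iGPA-only points lie above the shared points and their intervals do not overlap, from 62.3% against 46.8% in the lowest band to 88.3% against 83.7% at 3.7 to 4.5.

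The E-boxes sat at the summits. In the 5497 sites with an E-box the nearest one was a median of 16 bp from the summit (quartiles 7 and 31), and 88.4% had one within 50 bp. A single E-box was found in 40.5% of the sites, at least 2 in 38.2% and at least 3 in 12.1%. The corresponding shares in sites of all 4 Atoh1 lists were 33.8%, 51.6% and 22.9%. These counts per site were not tested.

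**Figure D5:**
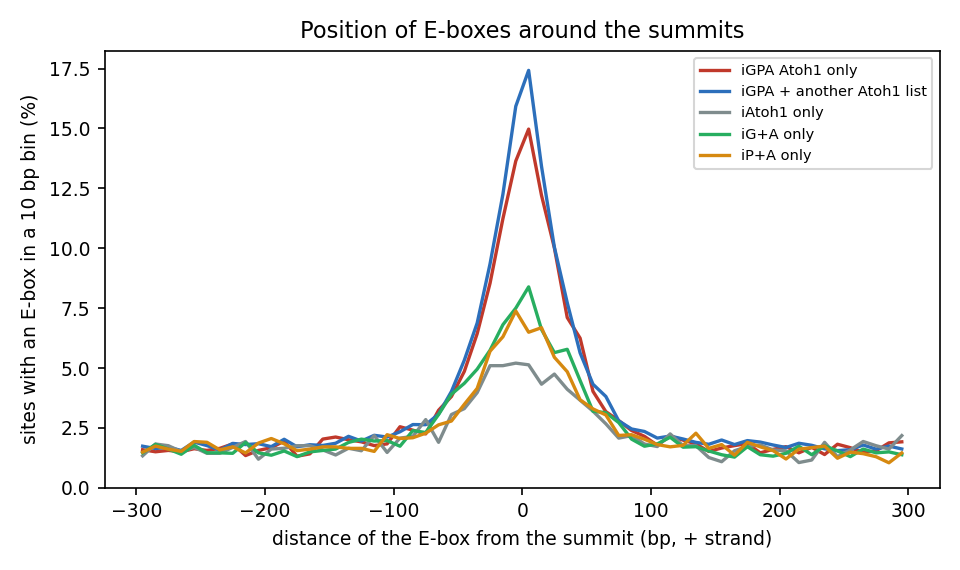
Share of sites (y axis, percent) with an Atoh1 E-box centred in each 10 bp bin by distance from the summit (x axis, bp on the plus strand). The iGPA-only and shared sites peak sharply at the summit, while the single-list sites of iAtoh1, iG+A and iP+A have lower peaks.

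Among all 2080 words of 6 letters, counted with their reverse complements, CAGCTG had the highest ratio to the flanks, in 50.4% of sites against 12.7% (ratio 3.97). CAGATG was in 44.5% (ratio 2.32) and CATATG in 7.79% (ratio 1.41). The word next in rank was CCGCGG (ratio 3.305), which holds CpG dinucleotides. The E-box form that differed most from the shared sites was CACCTG, which is outside the Atoh1 set: it was in 33.5% of the iGPA-only sites and 25.8% of the shared sites, with ratios to the flanks of 1.76 and 1.41. In the single-list sites of iAtoh1, iG+A and iP+A that ratio was 1.01, 1.14 and 1.07. The difference from the shared sites was 7.61 points (95% interval 6.21 to 9.02, and 5.60 to 9.62 when widened for the 10 E-box forms compared), on 20 of 20 chromosomes. CACCTG was the more frequent in iGPA-only sites with an Atoh1 E-box (32.1% against 24.5%) and without one (38.5% against 30.5%). The same held below a fold enrichment of 3 (30.1% against 21.1%), from 3 to below 3.7 (33.5% against 24.0%) and from 3.7 upwards (41.0% against 28.3%). These splits of CACCTG were not tested. Its frequency rose towards the summit in the iGPA-only sites and in the shared sites. It was found in 38.5% of the 1483 iGPA-only sites with no Atoh1 E-box.

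The Pou4f pattern and the Gfi1 pattern were not concentrated under these sites. The rule dropped every site with a kept Pou4f3 or Gfi1 peak, so low shares were favoured by the selection itself. The shares and differences here are a description, and the part of Pou4f3 or Gfi1 was not tested. The Pou4f pattern (ATAATTAAT with at most 1 mismatch, either strand) was in 470 sites, 6.73% (6.16 to 7.35), against 7.73% of the flanks, a difference of −0.996 points (−1.81 to −0.18). Shared sites, which may hold Pou4f3 or Gfi1 peaks, had 8.49% (difference −1.75 points, interval −2.59 to −0.91). Within bands of fold enrichment that difference was −1.10 (−2.34 to 0.15), and within bands and outside the crowded bins it was 0.15 (−0.71 to 1.01). The 2277 iGPA Atoh1 sites whose other peaks were all Pou4f3 or Gfi1 peaks had 22.9%, against 8.98% of their flanks. The same search thus did find the pattern in sites chosen for having such a peak. With no mismatch the pattern was in 27 iGPA-only sites (0.39%) against 0.33% of flanks, and the interval of that difference included 0 (−0.12 to 0.24). The Gfi1 pattern (AATCACAGC or AATCACTGC, either strand) was in 15 sites, 0.21% against 0.52% of flanks.

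The sites lay in introns (37.9%), between genes (37.0%) and within 1 kb of an annotated transcription start (20.5%, 19.6 to 21.5), with 2.19% in coding exons and 1.85% in untranslated exons. The share at starts was 27.8% in shared sites, a difference of −7.29 points (−9.53 to −5.06), and 29.6% in sites of all 4 Atoh1 lists. Both of those classes may hold Pou4f3 or Gfi1 peaks. Of the iGPA Atoh1 sites whose other peaks were all of that kind, 37.1% lay at a start. The share at starts was 12.2% in sites of iAtoh1 alone, 8.35 points lower (6.66 to 10.0), and 16.1% in those of iP+A alone, 4.39 points lower (2.36 to 6.42). In sites of iG+A alone it was 19.6%, and the interval of that difference included 0 (−0.79 to 2.71). The median distance to a start was 9535 bp, against 7363 bp for shared sites. At starts 63.7% of the iGPA-only sites had an E-box and elsewhere 82.6%, a difference of 18.96 points (15.4 to 22.5). The sites at starts had a mean of 13.7 CpG dinucleotides in 250 bp and the others 3.67. The 1483 sites without an E-box lay at a start in 35.1% of cases, in a crowded bin in 20.9% and on a left-out peak of another list in 19.6%, compared with 16.6%, 6.66% and 5.58% of the sites with one.

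The sites were spread over all chromosomes, from 0.55 per Mb on the X chromosome (89 sites) to 4.38 per Mb on chromosome 11 (520 sites). On the autosomes they made up from 19.9% of iGPA Atoh1 sites on chromosome 14 to 30.6% on chromosome 17. Chromosome 14 also had the lowest E-box share of the autosomes, 65.3%.

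Next, genes were listed by whether a site lay in the gene or within 10 kb of it. Of 22367 protein-coding genes 4970 (22.2%) had at least 1 such site, and of all 37273 annotated genes 6259 (16.8%). Of the protein-coding genes with a site, 76.4% also had a kept peak of another Atoh1 list, compared with 48.2% of those without, and they were longer, with a median of 27475 bp against 12953 bp. Among protein-coding genes of at least 42468 bp, a site was present in 40.2% of the genes with another Atoh1 peak and in 19.4% of those without.

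Of 68 genes in 4 hair cell lists, 27 (39.7%) had a site against a background of 22.2%, with a median gene length of 45194 bp against 15427 bp for all protein-coding genes. The lists held 48 of the sites in all, of which 40 (83.3%) had an E-box, 30 were intronic and 14 lay at a start. Of all 6980 sites, which include those far from genes, 78.8% had an E-box, 37.9% were intronic and 20.5% lay at a start. These shares were not tested against each other. Fold enrichments of the 48 ran from 2.57 to 5.78 with a median of 3.20. The share was 11 of 23 for myosins and stereocilia, 6 of 14 for the tip link and transduction, 6 of 16 for the synapse, calcium and efferent genes, and 4 of 15 for hair cell regulators. For 22 of the 27 genes a kept peak of another Atoh1 list was present as well, at a different position, and for 5, Myo7a, Myo3a, Clic5, Tmie and Ush1g, there was none. Among all 4970 protein-coding genes with a site, 1174 had none, so its absence is not particular to the hair cell lists. Over all 8 other lists, Myo3a had 3 kept peaks, Clic5 2, Tmie 2 and Ush1g 5. At Myo3a 20 peaks of those lists were called before some were left out.

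Myo7a (chr7:105199570-105268034) carried 5 of the sites and nothing else. These were the 5 iGPA Atoh1 peaks of the gene, and no peak of the other 8 lists, left-out peaks included, was called in the gene or within 10 kb. One summit was at an annotated start (105268003, fold enrichment 4.06, 32 fragments), with others 1020 bp from a start within the gene (105266982, 3.45, 27 fragments) and 515 bp and 1680 bp outside it (105268549, 3.45, 27 fragments, and 105269714, 3.20, 25 fragments). The remaining summit lay 600 bp from an internal start (105232629, 3.45, 27 fragments). The nearest summit of another list was 28930 bp away. An E-box was present at 3 of the 5, the start included, whose sequence is printed above. Of all 4970 protein-coding genes with a site, 319 had no called peak of any other list. Among the 1207 with 2 or more sites there were 39 such genes, and among the 341 with 3 or more there were 8. Among the 115 with 4 or more, Myo7a was the only one. These counts over all genes were made after the Myo7a values had been seen.

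Among the other myosin and stereocilia genes, Myo15 had 2 sites in introns (4.06 and 2.58), and Myo3b, a tip-directed myosin like Myo3a, had 2 (3.57 and 3.08). Myo1c, linked to adaptation of transduction, had 2 (3.69 and 3.20), of which the second lay at the start of Crk. A single site was found at Myo6 (3.32), Myo3a (3.08), Eps8l2 (2.58), Triobp (2.57), Clic5 (26 fragments), Rdx (3.08) and Tprn (3.08). The Tprn site lay at the start of the neighbouring gene Ssna1 and on a left-out peak of the iPou4f3 list. The Triobp and Tprn sites had no E-box.

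At the genes of the tip link, the filament that pulls on the transduction channel, Cdh23 had 3 sites with fold enrichments from 2.83 to 3.32 and Pcdh15 had 1 of 4.06 with 4 E-boxes. Cdh23 also had 18 kept peaks of the other Atoh1 lists and Pcdh15 had 6. Tmie had 2 sites, the intronic one of 5.78 (46 fragments) and one of 3.08 at the start of Als2cl, and no peak of another Atoh1 list. Pdzd7 had 2 (both 3.20), of which one was in Lzts2, and the single site near Ush1g (3.20) lay in an intron of Otop2.

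For the synapse and its currents, Cacna1d had 2 sites (5.29 and 2.95). The stronger one lay exactly 300 bp from a summit of another list, at the edge of the rule, its peak overlapped a kept peak of another list, and the Pou4f pattern lay in its 250 bp. Atp2b2, the calcium pump of stereocilia, had 3 (2.95 to 3.45), Ctbp2, which encodes the ribbon protein ribeye, had 2 (3.69 and 2.71), Kcnma1 had 1 (3.81) and Pvalb had 1 (2.83).

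Among the regulators, Lhx3, a LIM-homeodomain factor of hair cells, had both of its iGPA Atoh1 peaks among the sites: one 60 bp from its start (2.95, no E-box) and one 1580 bp away in an untranslated exon of Qsox2 (3.45, 2 E-boxes). Eya1, which is needed for the inner ear to form, had 2 (3.32 and 2.83). Nhlh1, a bHLH factor, had 1 of 3.81 at 600 bp from its start, and Zbtb20 had 1 of 3.45. The other 11 regulators had none, although 14 of the 15 had a peak of another Atoh1 list.

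Lists other than those of the hair cell also held sites. Of 35 early neuronal genes 15 (42.9%) had at least 1, with a median gene length of 37019 bp. The strongest were at Cntn2 (6.77), Elavl3 (4.80), Ebf2 and Rbfox3 (4.55 each), Mapt and Nrcam (4.06 each), Ebf3 (3.69) and Myt1 (3.32), which encode adhesion molecules, RNA-binding proteins, a microtubule protein and transcription factors of neurons. Elavl3 was the only one of the 15 without a peak of another Atoh1 list. In the Notch pathway, through which a cell that becomes a hair cell holds back its neighbours, the count was 11 of 24 (45.8%). By their strongest site, the ligands Dll3 (4.43), Dll4 (3.45) and Jag2 (3.32), the receptors Notch3 (3.81) and Notch1 (3.20), the effectors Hes5 (3.45) and Hes1 (3.08) and the co-activator Maml1 (3.32) led the list. The Dll3 site lay at the start of BC089491 and the Jag2 site in a coding exon of Nudt14. All 11 also had a peak of another Atoh1 list, and the Notch3, Hes5 and Hes1 sites had no E-box.

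Lists not tied to either cell fate were counted in the same way. The counts were 4 of 18 (22.2%) for pluripotency, with Pou5f1 (3.32, 50 bp from its start), Lin28a (2.95), Klf4 (2.83) and Tbx3 (2.71), and 5 of 24 (20.8%) for mesoderm and endoderm, with Gata2 and Cdx2 (3.69 each), Pecam1 (3.08), Runx1 and Tbx6 (2.95 each). Of 79 ribosomal protein genes 15 (18.99%) had a site, led by Rpl3l (4.92), Rpl38 and Rpl8 (4.43 each), Rpl22 (4.31), Rps15 (3.94), Rplp2 (3.81), Rpl19 (3.69) and Rpl13 (3.08). The sites of Rpl8, Rps15 and Rplp2 lay at the starts of Commd5, Apc2 and Pnpla2. Median gene lengths in these 3 lists were 9544, 7998 and 3243 bp. The shares of the neuronal, Notch and hair cell lists were thus all above the background of 22.2%, and those of the pluripotency, mesoderm and endoderm, and ribosomal lists were at or below it, while the median gene length was above the 15427 bp of all protein-coding genes in the former (16957 bp in the Notch list) and below it in the latter. Within the hair cell lists, the regulators had a median of 9383 bp and a share of 26.7%. By length alone, a site was present in 10.7% of protein-coding genes shorter than 4697 bp and in 34.7% of those of at least 42468 bp. The lists were not tested against each other, and the part of gene length in their shares was not tested.

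By nearest start, the sites were assigned to 5380 genes, of which 4257 had 1 site, 833 had 2 and 290 had 3 or more. The genes nearest to the most sites were a U6 small nuclear RNA gene on chromosome 9 with 13, and Parvb with 8. Btbd9, Cdh26, Fam92b, Gm8837, Gse1 and a U6 gene on chromosome 17 had 7 each. Parvb, which encodes an actin-binding adhesion protein, had 8 sites and 2 kept peaks of the other Atoh1 lists in or near it. Btbd9 had 99 such peaks in or near it. Of the 8 genes, Btbd9, Fam92b and both U6 genes lie in crowded bins.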

How the data were processed

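Peak lists, and not reads, were analysed. According to the study's methods, reads were trimmed with Trimmomatic, aligned to mm9 with Bowtie2, filtered with Picard (duplicates), SAMtools (mapping quality) and a blacklist, and peaks were called with MACS2 on merged replicates against the input of the line (versions are not given in the sources used here). The deposited lists give for each peak a fold enrichment (a ratio of ChIP to background at the summit) and −log10 p-values and q-values, all made by the authors; the summit files give the peaks they kept. Depth per library is unknown, so fragments under each summit were recovered from fold and −log10 p (tolerance 0.001), which worked for 98.5% to 99.9% of the peaks of each list. Exact intervals cover counting error only, and jackknife intervals the spread between chromosomes. Neither covers the spread between libraries or lines.

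Windows of 300 bp were joined where they shared 1 bp. Patterns were searched in 250 bp of the NCBIM37 (mm9) sequence, and starts and genes came from GENCODE M1. Shares have exact Clopper-Pearson intervals; differences have a jackknife over chromosomes, checked on simulated data (Python 3.11.15, SciPy 1.17.1). A short tandem repeat has a unit of at most 12 bases over 80% of 100 bp. Sites and genes were named as the 8 with the highest fold on chromosomes 1 to 19 and X, every hair cell list gene with a site, up to 8 per other list, and the 8 genes nearest to the most sites. Some genes that this rule names are not reported here. Sites and lists were chosen with earlier results of these data known. Column 5 of the summit files was not used.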

Additional observations from a re-analysis of the deposited data

How the results depend on the processing

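No paired analysis was possible because the peak lists were called on merged replicates and hold no value per library, and for the same reason no replicate could be left out. Of 50 alternatives, 33 kept both direction and call or stayed within the limits set for a value without a test. The number of sites was 1254 with a −log10 p of at least 10 and 2619 with the list cut to 15568 peaks, and lay between 5410 and 8965 under the window, joining, peak and chromosome settings. The E-box share was 20.6% for AtEAM, 92.6% for any CANNTG, 68.6% in 100 bp, 89.1% at −log10 p of at least 10 and 81.4% outside crowded bins. The Pou4f share was 0.39% with no mismatch, the share at starts 38.3% within 5 kb and 18.8% for protein-coding starts, and the left-out share 13.2% within 1000 bp. The E-box difference from shared sites was −1.34 points in 100 bp (not past the threshold), −2.45 outside crowded bins, 12.5 within fold bands and 7.82 with both. The Pou4f difference was −1.10 within fold bands and 0.15 with both, neither past the threshold. The E-box differences from the 3 other single-list classes kept their sign and call under all 5 alternatives each. Crowded bins and fold bands were chosen after seeing the data. The causes were not tested.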
